A study of Mus musculus with 4 samples.

Results

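Islands of trimethylation of lysine 9 on histone H3 (H3K9me3) were described over 45 long genes that encode synaptic, adhesion and axon guidance proteins. The genes were listed by name for their length and their known role in neurons, with earlier results of these data known, and all 45 were found in the gene table among 20665 autosomal protein-coding genes. They fall into 15 groups by role, run from 123 kb (Gria2) to 2271 kb (Ptprd) with a median of 1023 kb, and together span 48.2 Mb. The mark was mapped by native chromatin immunoprecipitation and sequencing, which uses chromatin cut with micrococcal nuclease and not cross-linked. The cells were CD8+ T cells of the wild-type C57BL/6 strain. One ChIP library came from naive cells (day 0). The other came from cells on day 3 of culture in vitro with antibodies to CD3 and CD28, which stand in for antigen and costimulation, and with interleukin-2 (day 3). The labels do not say how many mice gave the cells or whether mice were pooled, and the lists hold no expression values against which the cell type could be checked. With 1 library per day there was no replicate and no test between days, so every difference below is a difference between these 2 libraries.

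H3K9me3 is laid down by methyltransferases such as Setdb1 and the Suv39h enzymes, is bound by HP1 proteins and is a mark of heterochromatin. It is found over repeats and over some genes that a cell lineage does not use. The genes described here encode proteins that hold synapses together, guide axons or carry fast signals between neurons, and they are best known from the brain. Many are among the longest genes of the mouse. A length so unusual matters for counting, since a long gene body meets an island more often than a short one, and values below are therefore set beside those of other genes within the members' length range. Those genes are shorter, with a median of 206 kb, and 1089 of the 1736 are under 250 kb. A comparison with all of them therefore does not correct for length, and the main values are also given by length class.

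SICER, the authors' peak caller for broad marks, joins neighbouring enriched windows into islands, and the covered share is the percentage of a gene body that lies in islands. There were 19989 islands on day 0, holding 3402787 reads, and 47553 on day 3, holding 10423178. Read density, which is not corrected for depth, started at 23.6 reads per kb in the day 0 islands and at 34.1 in the day 3 islands. Of the autosomes, 4.08% was covered on day 0 and 8.07% on day 3. Where no island is listed, no region passed the authors' threshold, and the mark may still be present below it.

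H3K9me3 islands lay in nearly all of these genes, but they covered only a small part of each. The 45 bodies were covered over 1401 kb in all on day 0 and over 4034 kb on day 3, which is 2.90% and 8.36% of their summed length. The median member had a covered share of 2.46% on day 0 (quartiles 1.47 and 4.08%) and of 6.45% on day 3 (quartiles 3.20 and 11.7%). The range ran from no island to 8.93% on day 0 (Grm8) and from no island to 24.2% on day 3 (Gabrb1). An island was present in 43 of 45 members on each day, or 95.6%. Of the 1736 other autosomal protein-coding genes within the same length range, 80.7% carried an island on day 0 and 83.2% did on day 3. By length class the counts were close. Of the genes of at least 1000 kb, 23 of 24 members and 31 of 31 others carried an island on day 0, and all of both did on day 3. For 500 to 1000 kb it was 14 of 14 members and 143 of 147 others on day 0, and 13 of 14 and 142 of 147 on day 3. For 250 to 500 kb it was 5 of 6 members on each day, beside 411 and 421 of 469 others. Over all autosomal protein-coding genes, most of them far shorter, the shares were 24% and 28.7%.

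**Figure D1:**
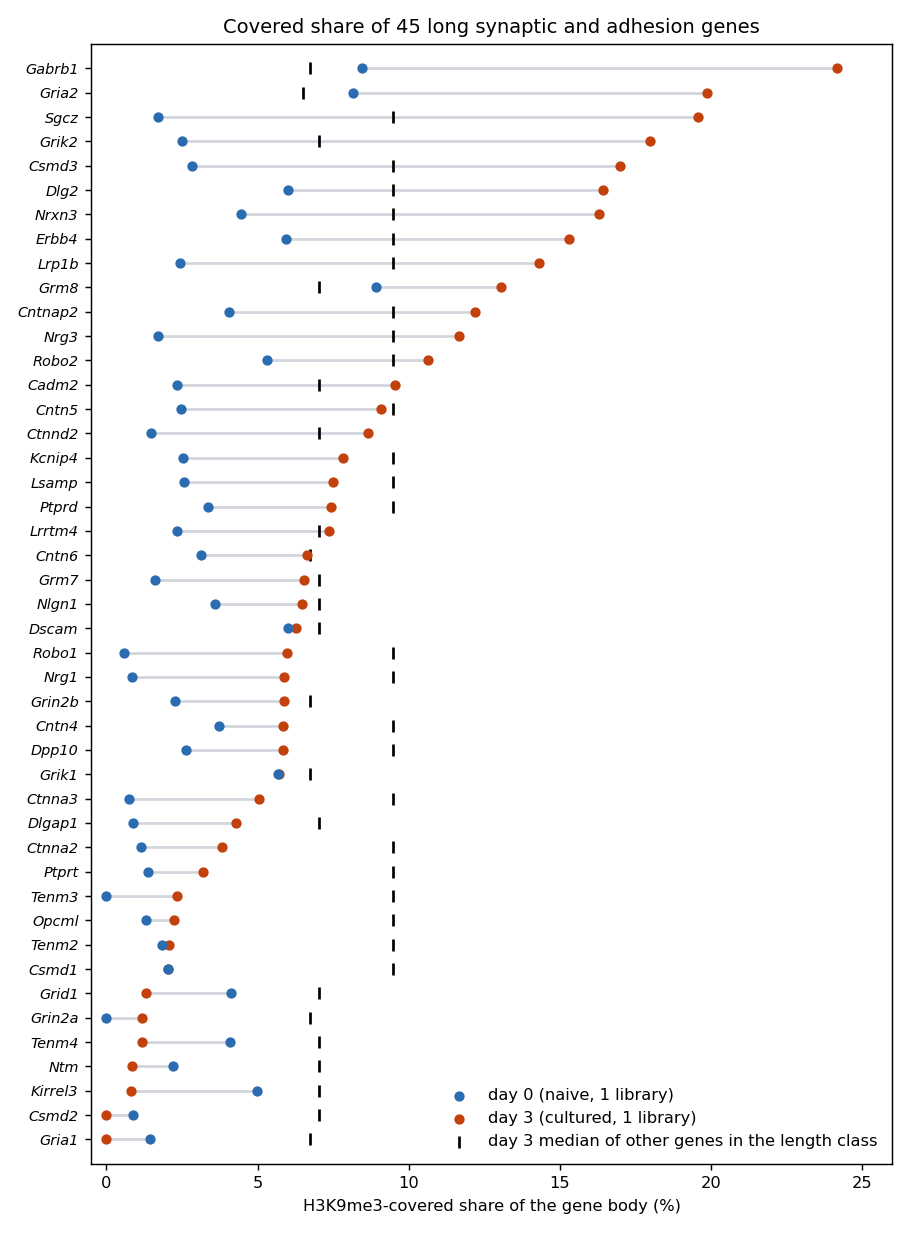
Covered share of the gene body (x axis, %) for each of the 45 genes (y axis), on day 0 (blue) and day 3 (orange), 1 library each, with a black tick at the day 3 median of other genes in the same length class. Gabrb1 stands highest on day 3 at 24.2%, and Gria1 and Csmd2 lie at the bottom with no island on that day.

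Covered length was higher on day 3 in 38 of the 45 genes (84.4%), higher on day 0 in 6, and equal in Csmd1. Among the other genes of similar length it was higher on day 3 in 61.5% and higher on day 0 in 29%, and among all autosomal protein-coding genes in 22.8% and 12.8%. By length class the differences were smaller or turned. Of the genes of at least 1000 kb, coverage was higher on day 3 in 23 of 24 members and in 27 of 31 other genes. In the class of 500 to 1000 kb the counts were 9 of 14 members and 111 of 147 others, and in the class of 250 to 500 kb they were 5 of 6 and 308 of 469. Gria2 was the only member under 250 kb.

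In covered share the members did not stand above genes of their own length. Only 16 of 45 members, 35.6%, were above the median of the other genes in their length class on each day, where 49.9% of the other genes were on day 0 and 49.9% on day 3. Among genes of at least 1000 kb the median was 2.44% in members and 2.94% in others on day 0, and 7.47% and 9.49% on day 3. For 500 to 1000 kb the medians were 2.42% and 3.45% on day 0 and 6.36% and 7.04% on day 3. For 250 to 500 kb they were 2.69% and 4.12%, then 5.79% and 6.74%. The members' median was thus the lower one in each of these 3 classes on both days, by amounts that are small beside the spread within a class. Members make up 24 of the 55 genes of at least 1000 kb within this range, so that the others of that class are few. Among the other genes of similar length, the highest shares were found in genes under 250 kb, but longer genes reached high shares too. The highest was 27.4% on day 0 and 54.4% on day 3 at 250 to 500 kb, and 24.4% and 44.7% at 500 to 1000 kb. Those named here are under 250 kb. Pou2f1 had a covered share of 35.8% on day 0, Bicd1 of 35.2% and Cdc42bpa of 29.5%, and on day 3 Pparg had 60.2% and Adamts6 59.2%.

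**Figure D2:**
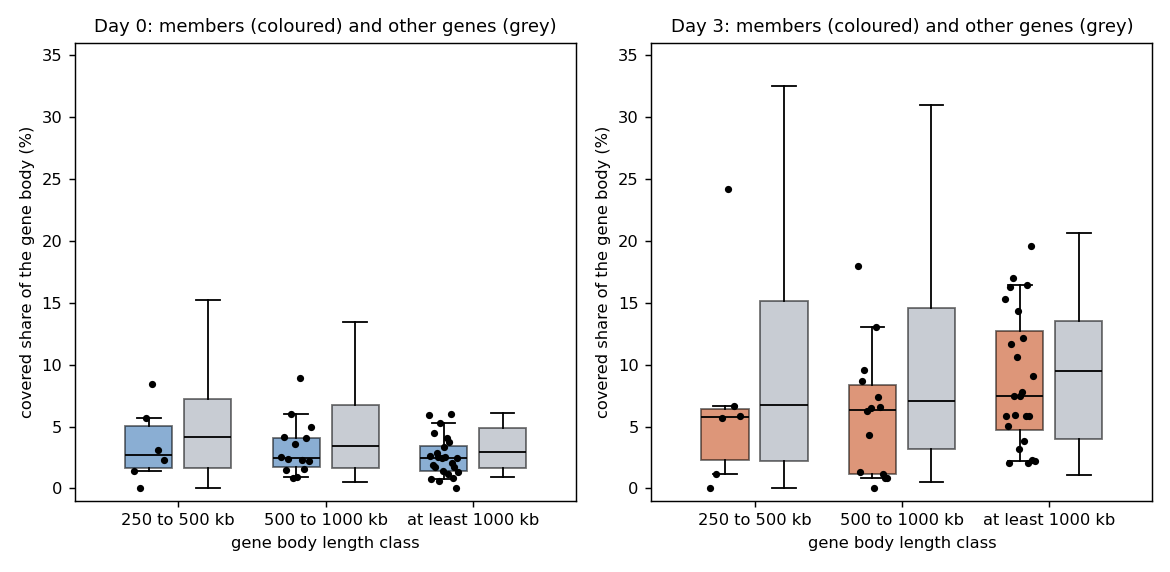
Covered share of the gene body (y axis, %) by length class (x axis) for members (coloured boxes, black points for single genes) and other autosomal protein-coding genes (grey boxes), on day 0 (left) and day 3 (right). Boxes show quartiles and median and whiskers the 5th and 95th percentiles over genes, and the members' median lies below that of the other genes in all 3 classes on both days.

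The 2 lists differ in length and in the density of their islands, and the choice of islands moved the count of members with an excess on day 3. With the day 3 list cut to the islands with the most reads until it covered as many bases as the day 0 list, 23 members had more coverage on day 3 and 21 had more on day 0. The other selections kept as many day 3 islands as day 0 islands (equal list length), only islands whose reads per kb reached the median of that list (density limit), or only islands of at least 4 kb. These left more bases covered on day 3 than on day 0, so they kept part of the difference between the lists. The lists covered 118 against 101 Mb with equal list length, 85.2 against 42.6 Mb with the density limit and 125 against 83.2 Mb with islands of at least 4 kb. Coverage was higher on day 3 under the deposited lists and all 4 alternative island selections in 19 members (42.2%), and higher on day 0 in 5 (11.1%). Among the other genes of similar length these shares were 30.7% and 16.3%. Most of those genes are shorter than the members, and these shares are not given by length class. The 19 were Cadm2, Cntn5, Cntnap2, Csmd3, Ctnna3, Ctnnd2, Dlg2, Erbb4, Gabrb1, Gria2, Grik2, Grm7, Lrp1b, Lrrtm4, Nrg3, Nrxn3, Robo1, Sgcz and Tenm3. The 5 were Gria1, Grid1, Kirrel3, Ntm and Tenm4. All 8 genes with the highest share on day 3 were among the 19, but a pick by day 3 share itself favours that outcome.

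Among the receptors for fast transmitters, Gabrb1 and Gria2 had the highest covered shares of the whole set on day 3. Gabrb1 (chr5:71657921-72149572), a beta subunit of the GABA-A receptor through which neurons are inhibited, had 8 islands spanning 41.6 kb of its body on day 0 and 27 spanning 119 kb on day 3, or 8.46% and 24.2%. The day 3 share was above that of 88.7% of the other genes of its length class. Gria2 (chr3:80681450-80804227), the AMPA receptor subunit whose RNA is edited to limit calcium entry, had 2 islands spanning 10 kb on day 0 and 5 spanning 24.4 kb on day 3 (8.14% and 19.9%). Both genes were above the median of their class on both days.

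The other AMPA receptor gene among the members differed from Gria2 in direction. Gria1 (chr11:57011571-57330244) held a single island on day 0, of 4.6 kb with 157 reads (exact 95% Poisson interval 133 to 184, counting error only), and none on day 3. The kainate receptor gene Grik2 (chr10:49093680-49790161) had 17.4 kb covered on day 0 and 7.20 times as much, 125 kb, on day 3, while its relative Grik1 had 22.4 and 22.6 kb. The NMDA receptor gene Grin2a had no island on day 0 and 2 short ones on day 3, of 3 kb and 2 kb, which together cover 1.17% of its body. Grin2b, the other NMDA receptor gene among the members, was covered over 2.26% and 5.86%. Grid1 (chr14:34820003-35583387), which encodes the delta-1 glutamate receptor and binds presynaptic neurexin through cerebellins, went against most of the set. Its 5 islands of day 0 spanned 31.4 kb, and its 3 islands of day 3 spanned 10 kb. In all, 5 of these 7 ionotropic glutamate receptor genes had more coverage on day 3. All but Gria2 lie in the classes of 250 to 500 kb and 500 to 1000 kb. There, 308 of 469 and 111 of 147 other genes had more on day 3. Of the 5, Grik1 was higher by only 0.2 kb and turned under all 4 alternative island selections, and Grin2b turned under the density limit (-0.4 kb).

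The metabotropic receptors Grm7 and Grm8, G protein-coupled receptors that damp transmitter release, ranked far apart. Grm8 (chr6:27275121-28135146) had the highest share of any member on day 0, at 8.93% or 76.8 kb in 16 islands, and 13.1% or 112 kb in 27 islands on day 3. Its excess on day 3 turned to an excess on day 0 under 3 of the alternative island selections. Grm7 was covered over 1.61% on day 0 and 6.55% on day 3, with no base in common between the days.

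Among synaptic scaffold and adhesion genes, Dlg2, Nrxn3 and Cntnap2 had the largest differences in kb. Dlg2 (chr7:90476188-92449246), which encodes the postsynaptic scaffold PSD-93, had 22 islands spanning 118 kb on day 0 and 81 spanning 324 kb on day 3, or 5.99% and 16.4%. Dlgap1, which encodes a protein that binds such scaffolds, was covered over 0.868% and 4.29%. Nrxn3 (chr12:88722701-90334935), a presynaptic neurexin, was covered over 71.8 and 263 kb (4.45% and 16.3%), and Cntnap2 (chr6:45060061-47301393), a neurexin relative that clusters potassium channels on axons, over 91 and 273 kb (4.06% and 12.2%). Partners of neurexins on the postsynaptic side had less. Nlgn1, a neuroligin, was covered over 3.58% and 6.45%, and Lrrtm4 over 2.33% and 7.35%. No base of Nlgn1 or Lrrtm4 was covered on both days.

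The low-density lipoprotein receptor relative Lrp1b (chr2:40595290-42653598) had the largest difference of all members, with 11 islands spanning 50 kb on day 0 and 71 spanning 295 kb on day 3. The 3 Csmd genes, which encode very large membrane proteins with CUB and sushi domains, differed from one another. Csmd3 (chr15:47580638-48792558) had 34.2 kb covered on day 0 and 206 kb on day 3, or 2.82% and 17.0% of its body. Csmd1 was covered over 33.6 kb on both days, at largely different places, since only 1.8 kb was common to them. Csmd2 (chr4:127986505-128567660) held 1 island of 5.2 kb on day 0 (161 reads, exact 95% Poisson interval 137 to 188) and none on day 3. With its 31.0 reads per kb, not corrected for depth, that island was less dense than any day 3 island.

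Contactins, adhesion proteins anchored by a lipid tail, lay in the middle of the order. Cntn4 was covered over 3.72% on day 0 and 5.85% on day 3, Cntn5 over 2.46% and 9.07%, and Cntn6 over 3.13% and 6.64%. The IgLON genes, which encode small anchored immunoglobulin proteins, were low apart from Lsamp. Lsamp was covered over 56.4 and 165 kb (2.57% and 7.49%). Opcml and Ntm lie close together on chromosome 9 and differed in direction, with 14.8 kb on day 0 and 25.2 kb on day 3 in Opcml and 21.2 and 8.20 kb in Ntm. Under 3 of the island selections Opcml turned to an excess on day 0 (-3.4 kb), the direction of Ntm. Among other immunoglobulin adhesion genes, Cadm2 was covered over 2.34% and 9.55%. Dscam was covered over 6.00% and 6.27%, with only Grm8, Gabrb1 and Gria2 above it on day 0, and near the middle of the order on day 3. Kirrel3 (chr9:34485853-35040807) had the largest excess on day 0, with 6 islands spanning 27.6 kb then and 2 spanning 4.60 kb on day 3.

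Teneurins, large adhesion proteins that pair with latrophilins across the synapse, had the lowest coverage on day 3 of the groups with at least 3 members, with a median of 2.06%. Tenm3 had no island on day 0 and 30.2 kb on day 3. Tenm2 was covered over 22.8 and 25.4 kb with no base in common. Tenm4 (chr7:96171244-96911093) had 7 islands spanning 30.2 kb on day 0 and 3 spanning 8.60 kb on day 3.

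The guidance receptors Robo1 and Robo2, which sense Slit proteins and repel growing axons, lie near each other on chromosome 16. Robo1 had 6.00 kb covered on day 0, or 0.588% of its body, and 60.8 kb on day 3. Robo2 (chr16:73891976-75447443) was covered over 82.6 and 165 kb, and the excess on day 3 turned in favour of day 0 when the lists were made equal in number or in covered length. The receptor tyrosine phosphatase genes Ptprd and Ptprt, whose proteins organise synapses, were covered over 3.35% and 7.44%, and 1.39% and 3.20%. The catenin genes, which link cadherins to the cytoskeleton, had little on day 0. Ctnna3 was covered over 0.750% and 5.06%, Ctnna2 over 1.13% and 3.82%, and Ctnnd2 over 1.47% and 8.66%.

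Neuregulin signalling genes, in which Nrg1 and Nrg3 encode ligands and Erbb4 the receptor kinase, had more on day 3 as deposited. All of them are in the class of at least 1000 kb, where 27 of 31 other genes had more on day 3 too. Nrg1 turned with equal covered length (-1.6 kb). Erbb4 (chr1:68031884-69108576) had 14 islands spanning 64 kb on day 0 and 41 spanning 165 kb on day 3, Nrg3 had 18.8 and 129 kb covered, and Nrg1 had 9 and 63.8 kb. Kcnip4 and Dpp10, partners of A-type potassium channels, were covered over 2.54% and 7.82%, and 2.64% and 5.83%. Sgcz (chr8:37517840-38661705), which encodes zeta sarcoglycan of a membrane complex, showed the largest ratio among members with at least 10 kb on day 0. Its 4 islands of day 0 spanned 19.6 kb and its 54 islands of day 3 spanned 224 kb, which is 11.4 times as much, and 72.4% of its day 0 bases were covered again on day 3.

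**Figure D3:**
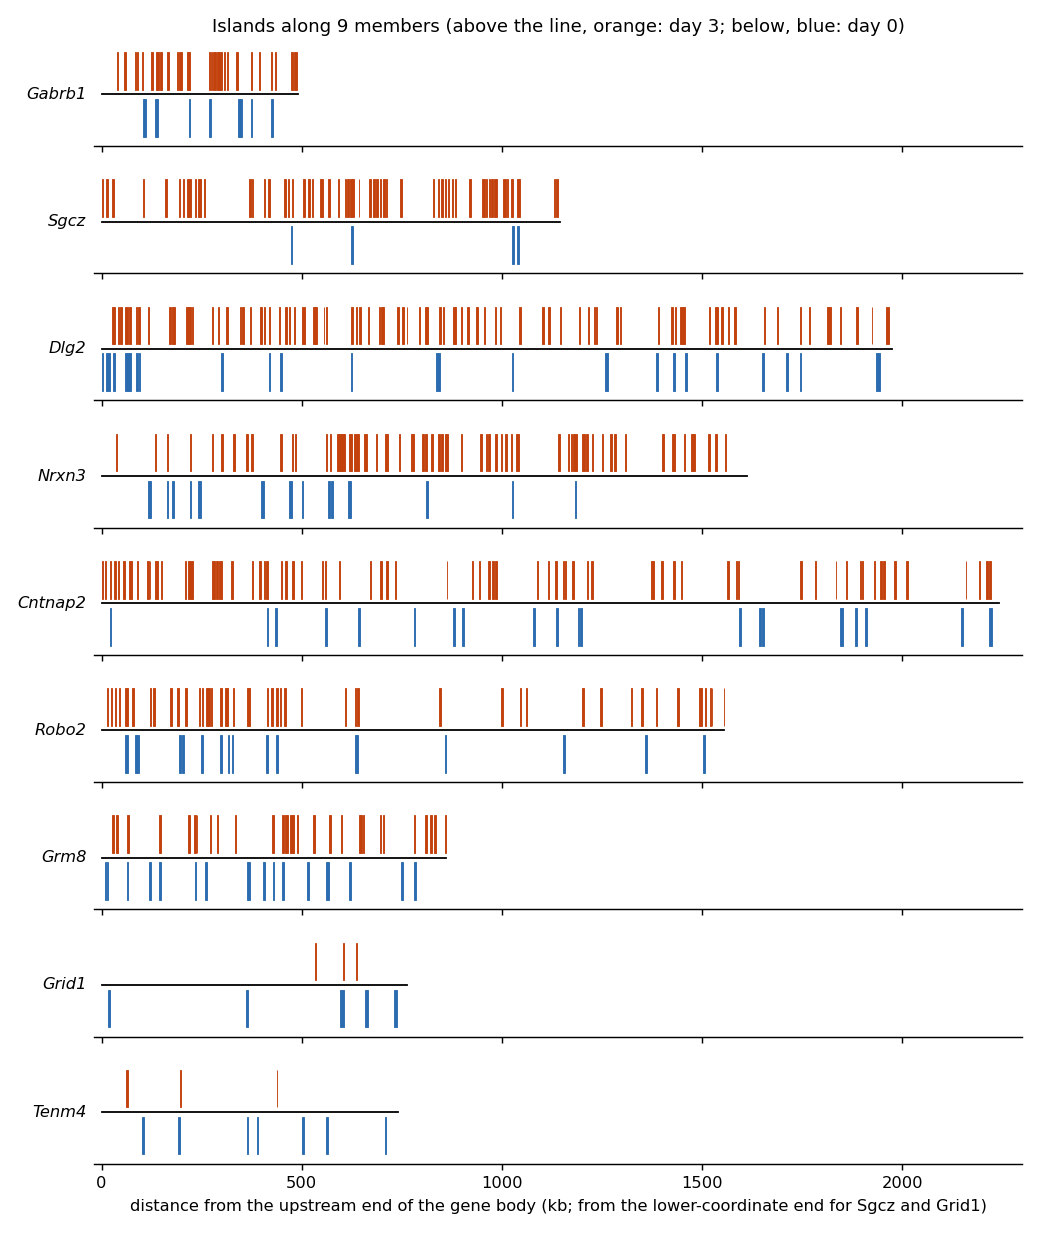
Islands drawn along 9 genes (x axis, kb from the upstream end of the body, or from the lower-coordinate end for Sgcz and Grid1), with day 3 islands in orange above the line and day 0 islands in blue below, drawn to scale with a thin outline. Dlg2 and Robo2 carry day 0 islands crowded near the upstream end, while Grid1 and Tenm4 carry more islands on day 0 (5 and 7) than on day 3 (3 and 3).

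Islands lay at many places along these genes, and no windows of other genes were counted beside them. In consecutive windows of 100 kb laid from the lower-coordinate end of each body, 262 of 458 windows had no covered base on day 0, 105 had none on day 3 and 75 were free of islands in both lists. The window with the highest share on day 0 was the first of Dlg2 (chr7:90476188-90576187), with 43.4% on day 0, 34.0% on day 3 and 19.4% on both. Next on day 0 were windows in Grm8 (23.6%) and Robo2 (19.4%). On day 3 the highest window lay in Nrxn3 (chr12:89322701-89422700), with 35.7% against 7.20% on day 0. It was followed by one in Gabrb1 (chr5:71757921-71857920, 34.1% against 14.8%). In Cntnap2 a window (chr6:45260061-45360060) had 33.1% on day 3 and no island on day 0. No other protein-coding gene overlapped any of these windows.

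For 32 members the direction of transcription was known from RefSeq start windows. Each body was cut into 10 segments of equal length, numbered from the upstream end. Averaged over these genes, segment 3 was highest on day 0 (4.66%) and segment 7 on day 3 (10.7%), and segment 1 had 2.96% and 10.5%. Segment 10 had 2.34% and 7.07%. In 1326 other genes of similar length the means ran from 5.51 to 6.91% on day 0 and from 8.97 to 12.0% on day 3. Medians differed from these means. Over the members the median was 0 in segment 3 on day 0 and 9.76% in segment 7 on day 3. Over the other genes it was 0 in every segment on both days. Single genes were less even. In Dlg2 segment 1 was covered over 22% on day 0 and the next highest, segment 8, over 9.53%. Robo2 had 12.5, 11.6 and 11.3% in segments 1 to 3 on day 0 and at most 4.63% in the rest, and on day 3 those 3 segments were again its highest, at 21.3, 24.5 and 20.4%. In Cntnap2 segment 1 was the highest on day 3 (26.1%) and had 1.87% on day 0.

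**Figure D4:**
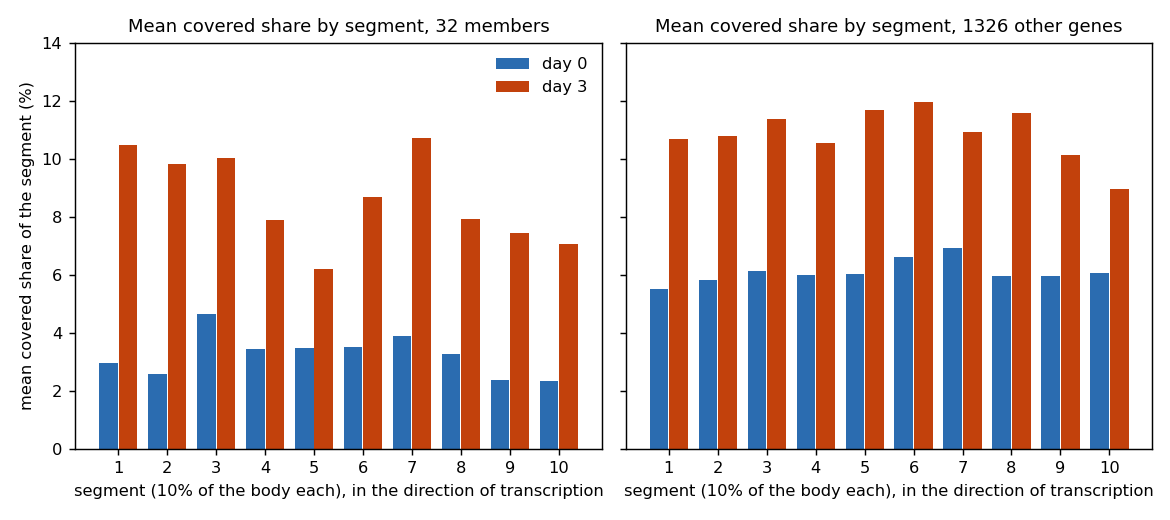
Mean covered share (y axis, %) of each of 10 equal segments of the gene body from the upstream to the downstream end (x axis), on day 0 (blue) and day 3 (orange), for 32 members (left) and 1326 other genes of similar length (right). Over the members no segment is above 4.66% on day 0, and day 3 runs from 6.21% in segment 5 to 10.7% in segment 7.

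Islands seldom reached a listed transcription start. RefSeq start windows, which run from 250 bases before to 50 bases after a start, were matched for 32 of the 45 members and gave 54 starts. The 13 members without an entry were Csmd1, Csmd2, Csmd3, Gria1, Grid1, Grik1, Grin2a, Grin2b, Kirrel3, Lrp1b, Nrg1, Ptprd and Sgcz. In Cntn4, Dlg2, Dpp10, Kcnip4, Nrxn3, Ntm, Robo1, Tenm2 and Tenm3 no listed start lay near the upstream end of the body. The body of Dlg2, for example, begins at chr7:90476188, and its first listed start is at chr7:91090786. Any starts at the upstream ends of these genes were therefore not examined. Within 1 kb of a listed start, an island lay at 2 of the 32 genes on day 0 (Grm8 and Ctnna2) and at 3 on day 3 (Gabrb1, Cntnap2 and Kcnip4), or 6.25% and 9.38%. Among other genes of similar length with a listed start, 6.11% and 11.6% had one. Only at 1 start of Grm8 did an island cover the start window itself. That day 0 island (chr6:28123601-28127400) held 135 reads in 3.8 kb (exact 95% Poisson interval 113 to 160), and the nearest day 3 island lay 18.4 kb from that start. It covered a start inside the gene that is poor in CG dinucleotides, with 2 in 300 bases, and left free the outermost Grm8 start, which has 33. The median start window held 10 CG in members, 16 in other genes of similar length and 14 over all autosomal protein-coding genes. At least 1 CG was present in all 54 member windows, in 98.7% of those of similar length and in 95.6% of all. In Ctnna2 the day 0 island ended 0.534 kb from a start rich in CG, with 38. The windows of these 3 starts are shown 5′ to 3′ on the minus strand, from RefSeq build GRCm38.p6, to set the covered start beside the uncovered ones, with each CG in capitals. The CG pair reads the same on both strands.
Grm8, start inside a day 0 island (chr6:28126377-28126676, minus strand): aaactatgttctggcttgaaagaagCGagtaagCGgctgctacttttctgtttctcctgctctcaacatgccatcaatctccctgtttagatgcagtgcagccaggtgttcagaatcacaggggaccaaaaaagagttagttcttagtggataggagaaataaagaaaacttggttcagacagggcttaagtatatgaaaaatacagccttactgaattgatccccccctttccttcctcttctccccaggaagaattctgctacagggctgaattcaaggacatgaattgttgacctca
Grm8, outermost start (chr6:28135097-28135396, minus strand): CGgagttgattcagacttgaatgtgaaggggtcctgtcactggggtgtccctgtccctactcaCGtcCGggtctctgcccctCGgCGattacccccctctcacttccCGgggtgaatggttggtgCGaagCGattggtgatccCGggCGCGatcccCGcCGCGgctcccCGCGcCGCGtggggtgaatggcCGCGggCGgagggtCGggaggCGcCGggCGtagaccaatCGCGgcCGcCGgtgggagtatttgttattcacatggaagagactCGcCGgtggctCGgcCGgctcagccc
Ctnna2, start near a day 0 island (chr6:77979618-77979917, minus strand): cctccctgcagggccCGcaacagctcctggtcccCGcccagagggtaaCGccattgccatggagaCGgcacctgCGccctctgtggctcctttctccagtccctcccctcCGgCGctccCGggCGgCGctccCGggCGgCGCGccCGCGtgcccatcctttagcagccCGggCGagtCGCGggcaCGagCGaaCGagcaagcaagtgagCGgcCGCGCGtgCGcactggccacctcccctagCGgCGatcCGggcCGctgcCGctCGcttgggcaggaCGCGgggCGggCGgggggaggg

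Islands of day 0 and day 3 lay mostly on different bases, in the members as in the other genes of the length range. A base outside the islands may still carry the mark below the authors' threshold. Of the members' covered bases, 290.4 kb was covered on both days, which is 20.7% of the day 0 bases and 7.20% of the day 3 bases. For scale, day 3 islands covered 8.36% of the members' summed length and day 0 islands 2.90%. The days thus overlapped more than these covered shares, with 20.7% beside 8.36% and 7.20% beside 2.90%. In the other genes of the length range, most of them shorter, the shares were 23.4% and 11.9%. The direction of this difference depended on length. In genes of at least 1000 kb the members shared 23.0% and 6.96%, and the others 17.5% and 5.85%. In genes of 500 to 1000 kb the members shared 13.1% and 6.77%, and the others 23.1% and 10.2%. Among the 41 members with islands on both days, 10 shared no base between them (24.4%), where 40.4% of such other genes, most of them shorter, shared none. These 10 were Cntn6, Ctnna3, Grin2b, Grm7, Lrrtm4, Nlgn1, Nrg1, Opcml, Robo1 and Tenm2. Dlg2 had 34.4 kb in common, the most of any member, beside 83.8 kb on day 0 only and 289 kb on day 3 only. In Gabrb1 19 kb was common, 45.7% of its day 0 bases, and in Grik2 9.60 kb, 55.2% of its day 0 bases.

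Islands in these genes were close to those of the whole lists in length and slightly less dense. The members overlapped 283 islands on day 0 and 1011 on day 3. Their median length was 4.8 kb on day 0 and 3.6 kb on day 3, the same as over all islands of each list. The median density was 33.2 reads per kb on day 0, against 34.1 over all islands, and 50.8 on day 3, against 52.9. Of the day 0 islands in members, 171 (60.4%) were less dense than any day 3 island, against 50.4% over the whole day 0 list. These densities are not corrected for depth, so they do not compare levels of the mark between days. Of the 283 islands of day 0, 99 met an island of day 3 (35.0%, against 33.6% in the whole list), and of the 1011 islands of day 3, 102 met one of day 0 (10.1% against 14.9%). The longest island on day 0 lay in Robo2 (chr16:75353001-75364400, 11.4 kb, 336 reads, exact 95% Poisson interval 301 to 374), in a place with no day 3 island. On day 3 the longest lay in Dlg2 (chr7:91920601-91934600, 14 kb, 618 reads, interval 570 to 669), followed by one in Csmd3 (chr15:48239801-48253400, 13.6 kb, 620 reads, interval 572 to 671). These intervals cover counting error only, since reads without molecular identifiers may be copies of 1 molecule.

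The sequence around each member was measured in the same way. Flanks as long as the body, but at most 500 kb on each side, had a median of 3.14% on day 0 and 6.58% on day 3, beside 2.46% and 6.45% in the bodies. The body was above its flanks in 18 of 45 members on day 0 (40%) and in 21 on day 3 (46.7%). Among the other genes of similar length this was so in 49.1% and 47.4%. On day 3 the members' count became a majority with equal list lengths (27), equal covered length (24) and islands of at least 4 kb (29). It stayed a minority with the density limit (18) and with 10 kb added on each side of the body (21). The other genes were not set against their flanks under these alternatives. Across the 45 members, the share of the body and that of the flanks had Pearson's r of 0.60 on day 0 and 0.73 on day 3 (Spearman's rho 0.50 and 0.79). Across the 1736 other genes r was 0.39 and 0.41 (rho 0.41 and 0.50). This is given as a description, since all points of a day come from the same library and some genes are neighbours. Gabrb1 stood out from its flanks on day 3, with 24.2% against 9.84%. Nrxn3 (16.3% against 7.28%), Csmd3 (17.0% against 8.02%) and Grik2 (18.0% against 9.14%) did so too. Dlg2 and Erbb4 were below their flanks on both days, with 5.99% against 11.7% and 5.94% against 10.8% on day 0. On day 3 they had 16.4% against 20.9% and 15.3% against 19.8%. Grid1 and Tenm4 lay in flanks that were covered more on day 3 (7.58% and 8.38%) than on day 0 (4.16% and 6.10%), against the direction of their bodies.

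**Figure D5:**
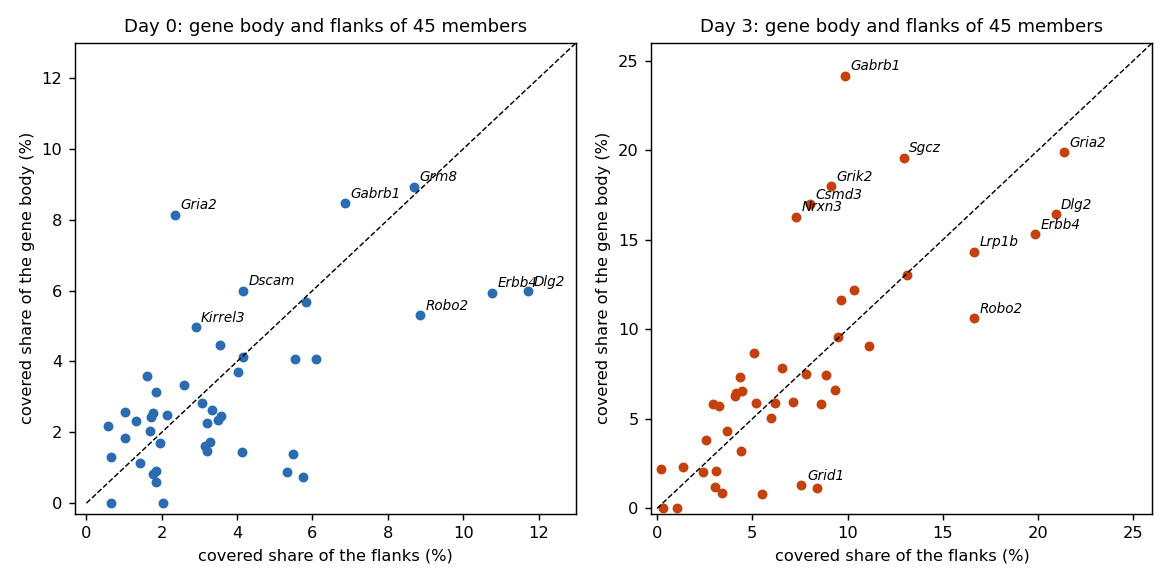
Covered share of the gene body (y axis, %) against that of its flanks (x axis, %) for the 45 members on day 0 (left) and day 3 (right), with a dashed line where both are equal. On day 3 Gabrb1, Nrxn3, Csmd3, Grik2 and Sgcz lie well above the line, and Dlg2, Erbb4, Robo2 and Grid1 below it.

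Members were also set beside their whole chromosome. The covered share was above that of the whole chromosome in 12 members on day 0 (26.7%) and in 17 on day 3 (37.8%), beside 52% and 44.4% of the other genes of similar length. The 7 members on chromosome 16 were together covered over 3.15% on day 0 and 7.66% on day 3, where the chromosome had 3.91% and 9.81%. The 8 members on chromosome 6 had 3.52% and 8.46%, beside 4.64% and 8.26% for the chromosome. They were thus above it on day 3 only. On chromosome 11, Gria1 and Tenm2 had 1.77% and 1.64%, beside 4.05% and 5.84%. Other chromosomes went the other way. On chromosome 7, Dlg2 and Tenm4 together had 5.47% and 12.3%, beside 3.22% and 5.22%. On day 3 the members were also above their chromosome on chromosome 5 (12.8% against 6.60%), 12 (16.3% against 8.99%) and 15 (13.5% against 8.33%). By smaller amounts this held on chromosome 1 (9.77% against 9.36%), 2 (10.4% against 10.1%), 8 (6.80% against 5.97%) and 10 (9.02% against 8.99%). Summed over all 45 members the share was 2.90% on day 0 and 8.36% on day 3, beside 4.08% and 8.07% of the autosomes.

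Another 59 genes for synaptic, guidance and adhesion proteins, all within the same length range and with a median length of 551 kb, were counted in the same way. Their median share was 1.98% on day 0 and 6.77% on day 3. An island was found in 50 of them on day 0 and in 56 on day 3, beside 80.7% and 83.2% of the other genes of the length range, most of them shorter. Coverage was higher on day 3 in 46 and higher on day 0 in 11, beside 61.5% and 29% of those other genes. In this list 15 genes on day 0 and 26 on day 3 were above the median of their length class, beside 49.9% of the other genes on each day. Most covered on day 3 were the protocadherin gene Pcdh7 (11.9% on day 0 and 35.4% on day 3), the netrin receptor gene Unc5c (11.7% and 22.7%) and the glutamate receptor gene Grm5 (7.71% and 19.6%). A list of 40 long genes used by lymphocytes, 28 of them within the length range, was set beside these. Those 28, with a median length of 264 kb, had a median share of 4.11% on day 0 and 9.97% on day 3, and 16 were above the median of their class on each day. An island was found in 25 of the 28 on each day. Coverage was higher on day 3 in 19 of the 28 and higher on day 0 in 8. Of the 40, the highest on day 3 were Itga4 (no island on day 0 and 57.4% on day 3), Cd226 (6.72% and 49.2%) and Tcf12 (27.4% and 42.7%). The lists differ in length from the members, and no difference between lists was tested.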

How the data were processed

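Native ChIP-seq of H3K9me3 was analysed from 2 ChIP libraries, 1 per day. The 2 input libraries described in the labels were not analysed here. Per the submitters' processing notes, the tools were Bowtie2 and SICER version 1.1, with build mm10. The sources used here do not give the threshold, the gap size, the treatment of duplicates or the use of the input. Each deposited island carries 1 whole number, read as the authors' raw read count because it is whole and follows island length. These counts are not scaled for depth, length or input, and mapped depth is not given. Where raw densities of the 2 lists are set side by side, they describe the lists and not levels of the mark. Islands were made 1-based. Covered bases were computed in Python 3.11.15 with numpy 2.4.6 and pandas 2.3.3 over RefSeq gene bodies (GRCm38.p6, of which mm10 is another name) with a minimum overlap of 1 bp. The code was checked against per-base counts on simulated intervals. Strand and start windows came from the RefSeq start table. The comparison genes were all other autosomal protein-coding genes within the members' length range, in 4 length classes. The members and lists were chosen with earlier results of these data known. Described in full were the 8 members with the highest day 3 share, the 5 highest on day 0, the 5 with the largest difference each way, the 5 with the longest single island on either day, those with no island on a day and those with an island near a start. Of other genes, the 3 highest on each day or in each list were named, except 1 that is not reported here. With 1 library per day no test was made. Alternatives changed the islands counted, the overlap required and the gene body.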

Additional observations from a re-analysis of the deposited data

How the results depend on the processing

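The alternatives changed which islands were counted, the overlap required or the gene body, and with 1 library per day they show only how the values of these libraries move. No paired analysis was possible because each day has 1 ChIP library. With as many day 3 islands as day 0 islands, those with the most reads, coverage was higher on day 3 in 27 members and on day 0 in 17, the median share on day 3 was 3.26%, and the bases covered on both days were 12.3% of day 0 and 7.94% of day 3. With equal covered length the counts were 23 and 21, the median 2.35%, and the shared bases 10.4% and 8.44%. With islands of at least the median density of their list, the counts were 31 and 13, the medians 0.588% on day 0 and 1.30% on day 3, and the shared bases 8.05% and 3.23%. With islands of at least 4 kb, they were 32 and 12, 2.01% and 3.88%, and 12.8% and 6.33%. With 10 kb added on each side of the body, they were 37 and 7, 2.42% and 6.32%, and 20.9% and 7.27%. Without the bases of other protein-coding genes, an alternative chosen after seeing the data, coverage was higher on day 3 in 39 members and on day 0 in 6, and the shared bases were 20.9% and 7.26%. When a difference of at least 5 kb was asked for, the counts were 35 and 5. The number of members with an island ran from 36 to 43 on day 0 and from 38 to 43 on day 3.

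Among the other genes of similar length, coverage was higher on day 3 in 41.4% and on day 0 in 45.7% with equal list lengths. The shares were 35.4% and 50.3% with equal covered length and 52.4% and 28.1% with the density limit. With islands of at least 4 kb they were 48.1% and 37.6%. Most of those genes are shorter than the members, and these shares are not given by length class. The difference of single members (day 3 less day 0, in kb) turned with equal list lengths in Dpp10 (-5.2), Tenm2 (-5.8), Robo2 (-15), Grik1 (-5.8), Dscam (-15.8), Ptprt (-6.2), Ptprd (-5.2), Grm8 (-6.32), Cntn4 (-18.6) and Opcml (-3.4). With equal covered length it turned in Dpp10 (-13.4), Tenm2 (-5.8), Lsamp (-14.2), Robo2 (-30.8), Grik1 (-5.8), Dscam (-28), Ptprt (-15.8), Nlgn1 (-3.2), Ptprd (-30.4), Grm8 (-22.5), Cntn6 (-1), Cntn4 (-22.8), Nrg1 (-1.6) and Opcml (-3.4). With the density limit it turned in Grik1 (-0.2), Dscam (-17), Dlgap1 (-5.2), Kcnip4 (-4.6), Grm8 (-23.8), Ctnna2 (-6.4), Cntn4 (-1.6) and Grin2b (-0.4), and with islands of at least 4 kb in Tenm2 (-5.8), Grik1 (-3.2), Dscam (-4.8), Cntn4 (-5.8) and Opcml (-3.4). With 10 kb added it turned in Grik1 (-4.66). With equal list or covered length and with islands of at least 4 kb, no island was left over the 3 starts reached on day 3. The cause of these changes was not tested.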
